A study of Mus musculus with 14 samples.

Results

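Hmx1, Hmx2, Hmx3, Nkx1-1, Nkx1-2, Msx1, Msx2 and Msx3 are homeobox genes of 3 small families, and H3K27me3 at them was measured by Cut&Tag in mouse embryonic stem cells (mESCs). Members were the peaks of the deposited table that lay within 10 kb of the RefSeq body of 1 of these 8 genes, which gave 59 of 74458 peaks. Of these, 32 lay on chromosome 5, with 15 at Hmx1, 8 at Nkx1-1 and 9 at Msx1. The other 27 lay at paralogs, with 12 at Hmx2, 3 at Nkx1-2, 6 at Msx2 and 6 at Msx3, and all 10 peaks of Hmx3 were also among the 12 of its neighbor Hmx2. Cut&Tag reads a histone mark by bringing the transposase Tn5 to an antibody on chromatin, so that sequencing adapters are inserted beside the mark.

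The study asked whether removing a Polycomb loop anchor alters H3K27me3 near the breakpoints and at the distant genes that the anchor contacts. The 7 libraries with counts came from cells with a deletion at Hmx1 (2 libraries), at the Hoxa cluster (3 libraries) or at Wnt6 (2 libraries). Hmx1 was an anchor whose partners, Nkx1-1 and Msx1, lie megabases away on the same chromosome. There was no H3K27me3 library of unedited cells in the table, so each deletion was compared with the other 2 pooled, and the comparisons share libraries. All groups derive from G4 mESCs, an F1 hybrid of the 129/Sv and C57BL/6 backgrounds, and per the study carried homozygous CRISPR-Cas9 deletions. They were grown with leukemia inhibitory factor on CD1 feeder cells. The labels name no clone and do not say whether libraries of a deletion came from separate cultures. A figure legend of the study gives 3 replicates for each deletion clone, whereas the table holds 2 libraries each for Hmx1 and Wnt6. P-values then measure only the spread between these libraries, which may be technical, and a deletion and its clone cannot be told apart.

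H3K27me3 is deposited by Polycomb repressive complex 2 (PRC2), which can bind the mark it makes and extend it along a chromosome, and it is known for covering developmental regulators that are silent in pluripotent cells. CG-rich promoters of such genes are typical targets of PRC2 in mESCs. The genes described here encode transcription factors of the NKL class of homeobox proteins, which act later, in the developing head, ear, nervous system and limbs.

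Promoter sequences are shown because H3K27me3 lay over all of them and because they show the difference in CG content between the start sites. Each is the 250 bases before an annotated start in RefSeq, build GRCm38.p6 (mm10), written 5′ to 3′ along the gene's own strand, with every CG dinucleotide in capitals. All 8 genes were matched in the RefSeq table. Those of the chromosome 5 genes and the 2 annotated starts of Hmx2 are given here: Hmx1 at chr5:35388611-35388860 on the plus strand, Nkx1-1 at chr5:33434091-33434340 on the minus strand, Msx1 at chr5:37824586-37824835 on the minus strand, the first start of Hmx2 at chr7:131548507-131548756 on the plus strand and its second start at chr7:131554043-131554292 on the plus strand.
Hmx1: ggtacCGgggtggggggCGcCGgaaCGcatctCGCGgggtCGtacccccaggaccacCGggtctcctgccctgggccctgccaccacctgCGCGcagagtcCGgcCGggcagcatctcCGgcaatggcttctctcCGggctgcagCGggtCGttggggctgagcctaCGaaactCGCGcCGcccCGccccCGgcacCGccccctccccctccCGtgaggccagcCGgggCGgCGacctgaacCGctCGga
Nkx1-1: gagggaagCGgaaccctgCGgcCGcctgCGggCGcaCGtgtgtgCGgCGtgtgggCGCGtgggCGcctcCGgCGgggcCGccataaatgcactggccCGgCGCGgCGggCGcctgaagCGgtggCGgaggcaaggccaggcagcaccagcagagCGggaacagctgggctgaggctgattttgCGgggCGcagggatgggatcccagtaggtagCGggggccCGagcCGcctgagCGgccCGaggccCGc
Msx1: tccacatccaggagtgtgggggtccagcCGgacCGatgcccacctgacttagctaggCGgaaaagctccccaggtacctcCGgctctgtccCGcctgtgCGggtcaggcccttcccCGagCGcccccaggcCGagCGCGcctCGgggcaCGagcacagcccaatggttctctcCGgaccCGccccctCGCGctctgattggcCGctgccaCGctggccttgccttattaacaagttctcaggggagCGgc
Hmx2 first start: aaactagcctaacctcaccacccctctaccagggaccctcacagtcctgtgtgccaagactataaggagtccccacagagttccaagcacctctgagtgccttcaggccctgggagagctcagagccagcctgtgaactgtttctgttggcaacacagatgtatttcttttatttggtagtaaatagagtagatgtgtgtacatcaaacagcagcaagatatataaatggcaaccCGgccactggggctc
Hmx2 second start: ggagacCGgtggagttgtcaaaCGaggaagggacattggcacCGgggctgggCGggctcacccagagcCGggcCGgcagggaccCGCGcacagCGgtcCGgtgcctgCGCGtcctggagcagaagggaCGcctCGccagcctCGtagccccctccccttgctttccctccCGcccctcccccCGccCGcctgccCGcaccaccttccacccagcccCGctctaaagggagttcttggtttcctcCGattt

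The motif searched was CG, which reads the same on both strands. It occurred 29 times in the Hmx1 sequence, 30 times in Nkx1-1, 20 times in Msx1, 31 times in Hmx3, 19 times in Nkx1-2, 16 times in Msx2 and 18 times in Msx3. The 2 starts of Hmx2 differed, with 1 CG in the first sequence and 21 in the second. Among all 32851 promoter sequences of the same length, 92.1% held at least 1 CG and the median was 6. A peak overlapped 42.5% of those promoters, with a median of 16 CG in the ones with a peak and 3 in the ones without. Every promoter of the 8 genes was overlapped by 1 peak, and at the CG-poor first start of Hmx2 the peak had 34.4 CPM per kb against 88.9 CPM per kb at its second start.

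Totals over the peaks ran from 6016500 to 36563541 counts per library, with a median of 23 to 148 counts per peak, so that single weak peaks were measured less precisely in the smallest library, replicate 1 of the Hmx1 deletion. Levels are CPM, read counts scaled to the depth of the library, here with TMM factors, and levels of different genes are compared per kb of peak. The labelled cell type was checked on 8 pluripotency genes, of which 5 had a peak over the promoter, the strongest of 55.6 CPM per kb at Esrrb. Their summed level was 352 to 366 CPM in the Hmx1 deletion, 386 to 401 in the Hoxa deletion and 329 to 343 in the Wnt6 deletion. Of 7 fibroblast genes chosen for the feeder cells, 2 had a promoter peak (Twist1 with 88.0 and Col1a2 with 41.3 CPM per kb), and their summed level was 806 to 856 CPM, 770 to 817 CPM and 746 to 840 CPM in the same order. No promoter level was available for Dppa4 of the first list or for Col1a1 and Thy1 of the second, and they are counted as without a promoter peak. H3K27me3 marks silent genes, so these lists do not measure the share of either cell type, and their part in the results was not tested.

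All 59 peaks lay above the median of the whole table. Their mean level ran from 13.9 to 135 CPM per kb with a median of 49.4, against a median of 7.74 CPM per kb over all peaks, and 27 of 59 lay above the 95th percentile of all peaks. They were also wider, from 273 to 3537 bp with a median of 784 bp against 476 bp. The widest, chr5:33427942-33431479, covered the end of the Nkx1-1 gene body away from its start. Of the 59 peaks, 9 overlapped a promoter.

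Summed over the peaks within 10 kb, the 8 genes carried nearly the same level of H3K27me3 per kb. Nkx1-1, a homeobox gene also called Sax2, had the highest mean, 68.0 ± 3.25 CPM per kb (SD, n = 7). It was followed by Hmx3, which with Hmx2 acts in the inner ear and hypothalamus, at 64.5 ± 2.98 (SD, n = 7), and by Msx1, a regulator of tooth and palate development, at 63.7 ± 3.73 (SD, n = 7). Hmx1, which acts in eye, ear and cranial ganglia, had 62.2 ± 3.12 CPM per kb (SD, n = 5) in the libraries that carry it. Next came Hmx2 at 61.8 ± 2.89 and Nkx1-2, a gene of the posterior neural plate, at 60.9 ± 3.37 CPM per kb (SD, n = 7 each). Msx3, a marker of the dorsal neural tube, had 59.9 ± 2.38 and Msx2, which acts in skull and skin appendages, had 59.7 ± 3.84 CPM per kb (SD, n = 7 each). In this order, each of the 7 pairs of neighbors had overlapping ranges over libraries, and the highest mean was 1.14 times the lowest. All 8 lay between the 97.4th and 98.6th percentile of the 30935 genes with a peak in their window. The order depends on the window: with peaks overlapping the gene body alone, Msx1 was highest at 100.3 and Msx2 lowest at 64.3 CPM per kb, and with peaks within 25 kb, Hmx2 was highest at 61.8 and Nkx1-2 lowest at 38.6 CPM per kb.

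**Figure D1:**
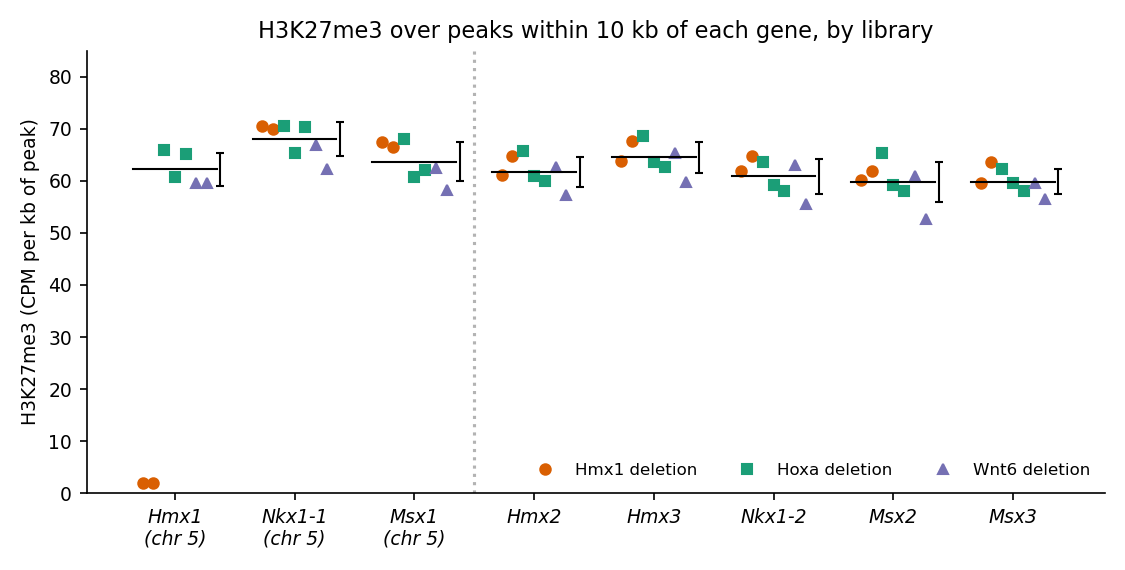
H3K27me3 level (CPM per kb of peak, y axis) of the 8 genes in each of the 7 libraries, coloured by deletion, with the mean as a line and the SD as error bar. For Hmx1 the mean and SD cover the 5 libraries that carry the gene, and the 2 libraries of the Hmx1 deletion lie near 2 CPM per kb. The means of the 8 genes lie between 59.7 and 68.0 CPM per kb.

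The distribution of the mark along the genes differed more than its sum. At Hmx1 the strongest peak, chr5:35388439-35389530, covered the promoter at 121 ± 12.8 CPM per kb (SD, n = 5). At Nkx1-1 the strongest peak, chr5:33438121-33438655, lay 4031 bp before the start at 135 ± 20.6 CPM per kb (SD, n = 7), above the promoter peak at 90.4 ± 5.84 (SD, n = 7). Msx1 had its strongest peak within the gene body, chr5:37821094-37821655, at 103 ± 8.64 CPM per kb (SD, n = 7), close to its promoter peak at 99.5 ± 11.2 (SD, n = 7). The promoter peak was the strongest at the second start of Hmx2 (88.9 ± 4.51 CPM per kb), at Msx2 (81.1 ± 4.62) and at Msx3 (93.5 ± 4.02, SD, n = 7 each). Hmx3 and Nkx1-2 had a stronger peak inside the gene body, at 87.0 ± 7.02 and 86.5 ± 5.52 CPM per kb, than at the promoter, at 79.6 ± 4.51 and 46.4 ± 2.79 CPM per kb (SD, n = 7 each). The strongest peak in the window of Hmx3 was the shared peak at the second start of Hmx2, outside the body of Hmx3. Promoter peaks held 54.7% of the summed counts at Msx3, 35.9% at Nkx1-2 and 31.0% at Msx1. The share was 18.8% at Hmx1, 19.0% at Nkx1-1 and 19.4% at Msx2.

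**Figure D2:**
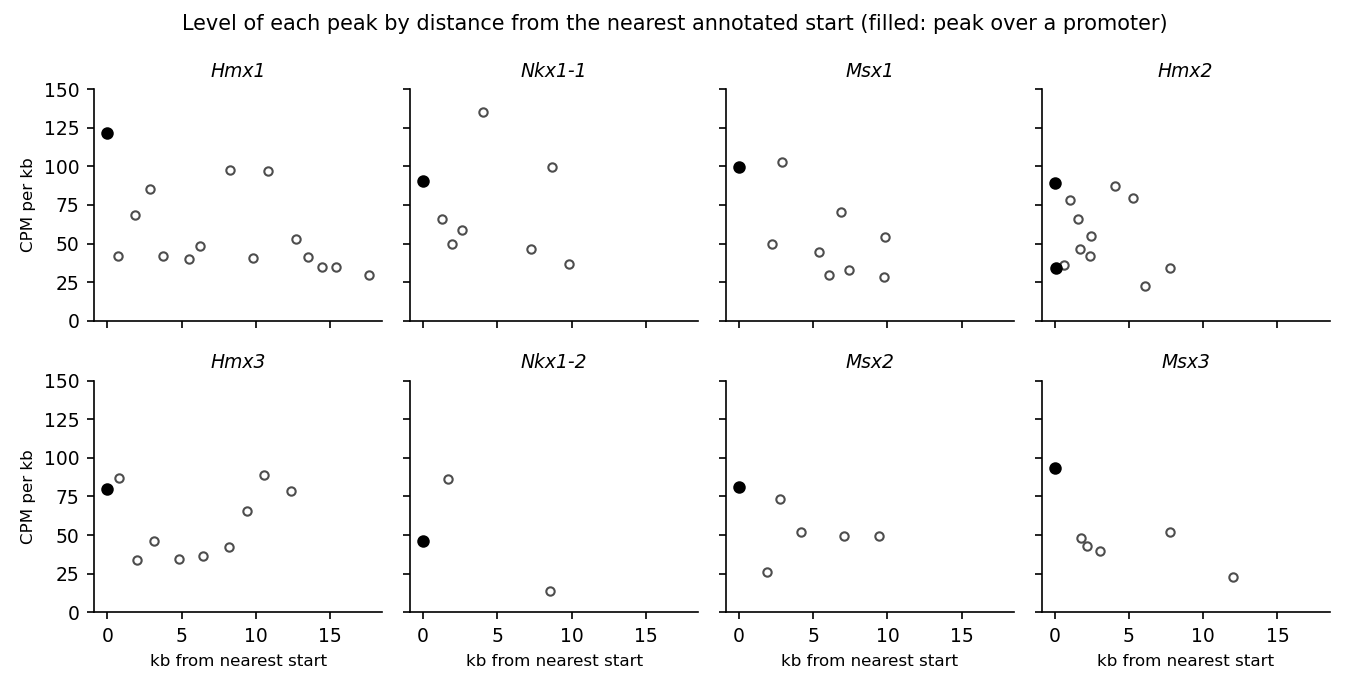
Mean H3K27me3 level of each peak (CPM per kb, y axis) by its distance in kb from the nearest annotated start of the gene (x axis), with 1 panel per gene and filled points for peaks over a promoter. The strongest peak is the promoter peak at Hmx1, Hmx2, Msx2 and Msx3, and lies elsewhere at Nkx1-1, Hmx3, Nkx1-2 and Msx1.

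The deletion removed the mark over Hmx1 itself, as the label says. Of its 15 peaks, 11 lay in the stretch chr5:35382872-35401827 in which both Hmx1 deletion libraries were under 10% of the others, and 0.269% ± 0.0890 (SD, n = 2) of the mean level of the others remained there. Per kb over all 15 peaks, the Hmx1 deletion libraries had 1.93 and 1.95 CPM per kb. The Hoxa deletion libraries had 65.9, 60.7 and 65.2 and the Wnt6 deletion libraries 59.6 and 59.5 CPM per kb. The body of Hmx1 (chr5:35388780-35400285) lies inside the stretch, and so does its promoter sequence shown above. The edges of the stretch are the outer ends of its first and last peak. Breakpoints of the deletion were not used here, so a distance from an edge is not a distance from a breakpoint.

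The 4 peaks of Hmx1 outside the stretch, all on the far side of the gene's 3′ end, were lower in the Hmx1 deletion. With a cutoff of 25% in place of 10% the nearest of them falls inside the stretch. Whether part of it is deleted was not tested. By edgeR's quasi-likelihood test all 4 peaks passed an absolute log2 fold change of 1 and a Benjamini-Hochberg adjusted p of 0.05, beside 0.0134% of the 74350 peaks tested outside the 3 deleted stretches (0.00941% lower). These shares are 10 and 7 peaks, and both include the 4 at Hmx1. No peak of the other 7 genes passed, so that 4 of 48 peaks outside the stretch were called. At all 4, both Hmx1 deletion libraries lay below every other library, as they did at 8.01% of all peaks tested. Nearest the edge, at 0.551 kb, the peak chr5:35402378-35403142 had 5.92 and 3.97 CPM in the Hmx1 deletion. It had 32.6, 32.3 and 29.8 CPM in the Hoxa deletion and 27.6 and 35.1 CPM in the Wnt6 deletion. Both Hmx1 deletion libraries lay far below every other library, at 15.7% of their mean, with a log2 fold change of -2.76 (SE 0.189, edgeR adjusted p = 3.77e-08). The third peak, chr5:35404252-35405192 at 2.42 kb, had 3.55 and 8.07 CPM against 31.0, 29.5 and 29.5 CPM in the Hoxa deletion and 35.2 and 37.1 CPM in the Wnt6 deletion. The 2 Hmx1 deletion libraries differed more from each other here than at the first peak, and the log2 fold change of -2.34 (SE 0.219, edgeR adjusted p = 6.67e-06) became -3.19 without replicate 2 and -2.01 without replicate 1 of the Hmx1 deletion. The peak between these, at 1.47 kb, retained 25.1% of the mean of the others, with a log2 fold change of -2.04 (SE 0.188, edgeR adjusted p = 5.74e-06).

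The fourth peak, chr5:35406496-35406853 at 4.67 kb from the edge, is the weakest of these. It had 4.56 and 4.13 CPM in the Hmx1 deletion, 7.76, 10.3 and 12.4 CPM in the Hoxa deletion and 9.78 and 12.7 CPM in the Wnt6 deletion. The groups did not overlap, and the log2 fold change was -1.33 (SE 0.219, edgeR adjusted p = 0.0253). Its call depended on the depth and on single libraries: the edgeR adjusted p was 0.110 with counts downsampled to the smallest library, 0.461 and 0.467 without replicate 1 or 2 of the Hmx1 deletion, 0.0516 and 0.0546 without replicate 2 or 3 of the Hoxa deletion, and 0.140 with the replicate number as a block. Summed over the 4 peaks, Hmx1 had a log2 fold change of -2.20 (SE 0.123, 95% interval -2.47 to -1.93, edgeR adjusted p = 2.55e-06). Against the Hoxa deletion alone it was -2.13, and against the Wnt6 deletion alone -2.30. Within 10 kb of gene bodies, 0.0259% of all 30930 genes tested were called in this comparison (0.0226% lower), Hmx1 among them.

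Around the stretch, peaks within 25 kb were lower on both sides and peaks beyond 50 kb had differences near 0. On the side of Hmx1's 3′ end, where coordinates are higher, the 1 peak between 5 and 10 kb from the edge had a log2 fold change of -0.90 (adjusted p = 0.247 by edgeR). The 2 peaks between 10 and 25 kb had -1.44 and -0.88, both below every other library in both Hmx1 deletion libraries. The 3 peaks between 25 and 50 kb had a median log2 fold change of -0.49 and the 7 between 50 and 100 kb one of 0.04. None of these 13 peaks was called by edgeR or DESeq2, and neither the peaks between 25 and 50 kb nor those beyond had an unadjusted p under 0.05.

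On the side before Hmx1's start, the first peak lay 9.33 kb from the edge, at chr5:35373039-35373541. With no peak in that gap, the breakpoint may lie anywhere within it. This first peak had a log2 fold change of -1.44 (adjusted p = 0.0728 by edgeR) and 36.2% of the mean of the others. The 3 peaks between 10 and 25 kb had log2 fold changes between -1.10 and -1.03, and in all 3 both Hmx1 deletion libraries lay below every other library. Their median was followed by 0.09 over the 4 peaks between 25 and 50 kb and 0.12 over the 4 peaks between 50 and 100 kb. EdgeR called no single peak on this side, where DESeq2 called 3 of 12. The share of all peaks that DESeq2 called is not given here, so this count has no background beside it. Sums over peaks were called by edgeR, as 3 long noncoding RNA genes whose windows hold, outside the stretch, only peaks of this side fell, 4930478P22Rik with a log2 fold change of -1.15 (SE 0.166, edgeR adjusted p = 0.0248), Gm52798 with -1.18 (edgeR adjusted p = 0.0320) and E130018O15Rik, whose body reaches into the stretch, with -1.21 (edgeR adjusted p = 0.0359). These sums share peaks and are not independent of each other. On the higher side, the noncoding gene Gm40283 fell by 1.68 on the log2 scale (adjusted p = 7.65e-05 by edgeR) over 7 peaks, of which 3 were among the called peaks of Hmx1.

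**Figure D3:**
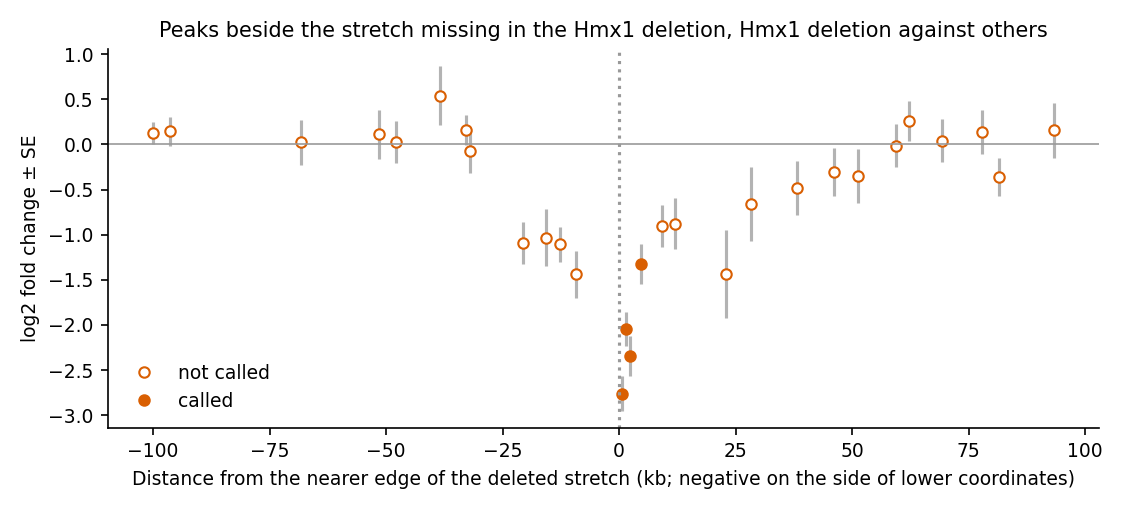
Log2 fold change of single peaks, Hmx1 deletion over both others pooled (y axis, error bars are SE) by distance in kb from the edge of the deleted stretch (x axis). Filled points passed an absolute log2 fold change of 1 and an adjusted p of 0.05. The 4 filled points, between 0.551 and 4.67 kb on the higher side, lie between -2.76 and -1.33, and points beyond 50 kb on both sides scatter around 0.

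At Nkx1-1 and Msx1, the 2 loop partners of Hmx1, the level in the Hmx1 deletion was not below that of the other libraries. Nkx1-1 (chr5:33430734-33434090, minus strand) lies at a distance of 1.95 Mb from the stretch. Its level was 70.5 and 70.0 CPM per kb in the Hmx1 deletion, 70.6, 65.4 and 70.4 in the Hoxa deletion and 66.8 and 62.3 in the Wnt6 deletion. The Hmx1 deletion libraries lay within the range of the Hoxa deletion, and the log2 fold change was 0.09 (SE 0.0464, 95% interval -0.01 to 0.19, edgeR adjusted p = 0.372). Msx1 (chr5:37820491-37824585, minus strand) lies 2.42 Mb away on the other side. It had 67.4 and 66.6 CPM per kb in the Hmx1 deletion, 68.1, 60.7 and 62.0 in the Hoxa deletion and 62.5 and 58.3 in the Wnt6 deletion. The Hmx1 deletion libraries were again within the range of the Hoxa deletion and above both libraries of the Wnt6 deletion, with a log2 fold change of 0.13 (SE 0.0529, 95% interval 0.01 to 0.24, edgeR adjusted p = 0.273).

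The paralogs on other chromosomes had values of the same size in the Hmx1 deletion. At Nkx1-2 the log2 fold change was 0.11 (95% interval -0.02 to 0.24), with 0.08 at Msx3 (-0.03 to 0.20), 0.07 at Msx2 (-0.07 to 0.20) and 0.06 at both Hmx2 and Hmx3 (-0.05 to 0.18). All 7 genes lay above 0 with a median of 0.08, beside a median of -0.012 over all genes tested. None passed the test, with edgeR adjusted p from 0.273 to 0.638, where only 0.0259% of all genes were called. The 95% intervals of the 7 genes together spanned ratios from 0.955 to 1.18. DESeq2 called none of the 7 either, and 1 of them, Msx1, had an unadjusted edgeR p under 0.05, beside 15.3% of all genes.

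Setting each partner against its paralog within the same library gave no separation of the Hmx1 deletion. The log2 ratio of Nkx1-1 over Nkx1-2 in CPM was 1.36 and 1.28 in the Hmx1 deletion and 1.26 to 1.45 in the others. That of Msx1 over Msx2 was 0.29 and 0.23 against 0.16 to 0.27, and that of Msx1 over Msx3 was 0.43 and 0.32 against 0.28 to 0.39. In all 3 ratios the groups overlapped.

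**Figure D4:**
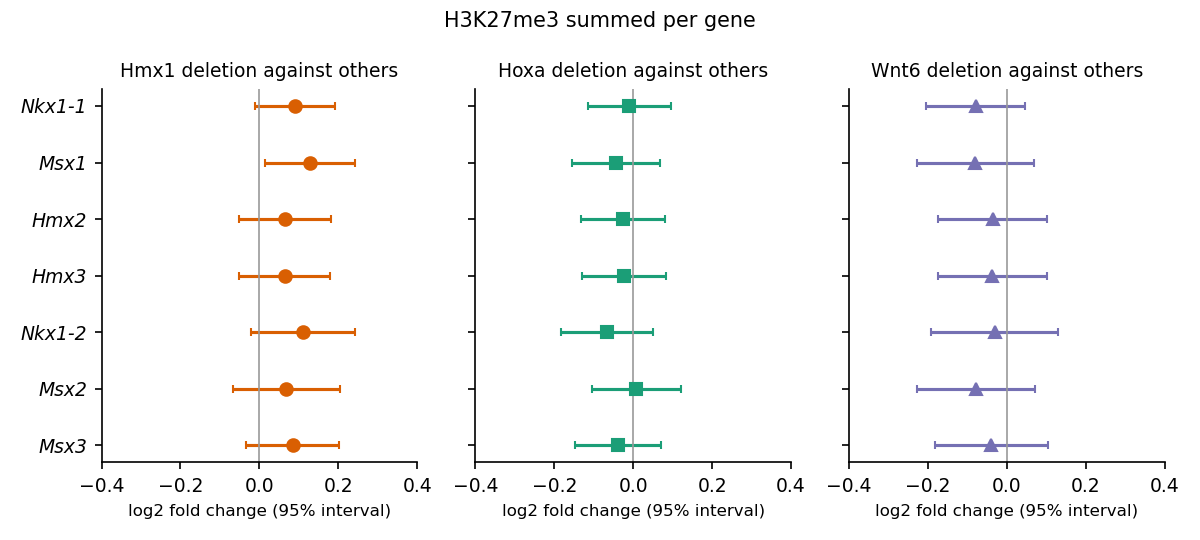
Log2 fold change of H3K27me3 (x axis, bars are 95% intervals) summed over the peaks within 10 kb of each of the 7 genes other than Hmx1, in each deletion against the other 2 pooled. All points lie between -0.08 and 0.13, and none passed the test.

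In the Hoxa and Wnt6 deletions the same 7 genes also differed little. In the Hoxa deletion their log2 fold changes lay between -0.07 and 0.01 (edgeR adjusted p from 0.488 to 0.952), with 95% intervals that spanned ratios from 0.881 to 1.09. In the Wnt6 deletion they lay between -0.08 and -0.03 (edgeR adjusted p from 0.865 to 0.960), with ratios from 0.854 to 1.09. None was called in either comparison by edgeR or DESeq2, where edgeR called 0.672% of all genes in the Hoxa deletion and 0.00647% in the Wnt6 deletion. None had an unadjusted p under 0.05, beside 29.2% and 6.05% of all genes. Since every deletion serves as a control for the others, the small positive values of the Hmx1 deletion and the small negative values of the Wnt6 deletion rest partly on the same libraries.

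Single peaks at the 7 genes gave the same picture in finer grain. Of the 44 peaks, none was called in the Hmx1 deletion by edgeR or DESeq2, where edgeR called only 0.0134% of all peaks tested. Their log2 fold changes ran from -0.58 to 0.45 with a median of 0.08, 32 of 44 lay above 0, 3 had an unadjusted p under 0.05 (8.94% of all peaks) and the smallest edgeR adjusted p was 0.421. The 17 peaks of Nkx1-1 and Msx1 had a median log2 fold change of 0.09, with 12 above 0, and the 27 peaks of the paralogs one of 0.08, with 20 above 0, beside -0.0065 over all peaks tested. Both Hmx1 deletion libraries lay above every other library at 6 of 44 peaks (13.6%), beside 6.93% of all peaks tested, namely 1 each at Nkx1-1, Nkx1-2 and Msx1 and 3 at Msx3. They lay below every other library at 0 of 44, beside 8.01% of all peaks.

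**Figure D5:**
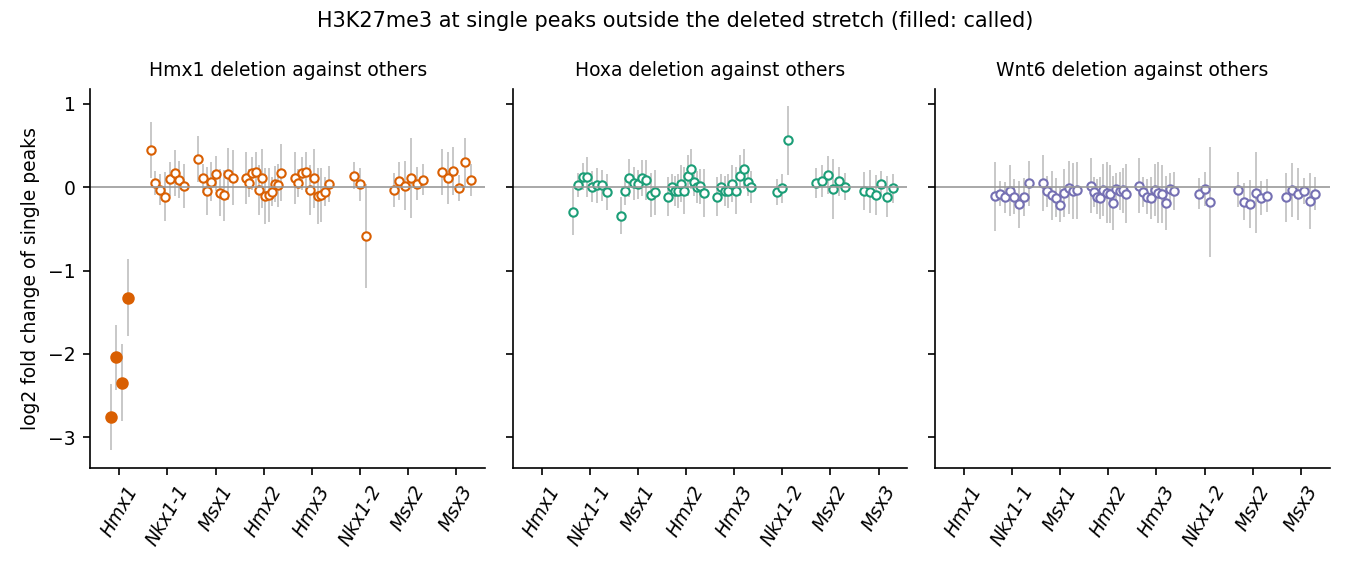
Log2 fold change (y axis, bars are 95% intervals) of each single peak outside the deleted stretch, grouped by gene, in the 3 comparisons. Filled points were called, and the peaks of Hmx1 appear only in the Hmx1 comparison. The 4 called points are the peaks of Hmx1 outside the stretch, and the 44 peaks of the other genes run from -0.58 to 0.45 in the Hmx1 deletion.

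The partner peaks with the smallest p in the Hmx1 deletion at Nkx1-1 and in the Hoxa deletion at Msx1 did not overlap a promoter. At Nkx1-1, chr5:33426511-33426833 had 20.8 and 16.8 CPM in the Hmx1 deletion, 13.8, 13.8 and 12.1 in the Hoxa deletion and 11.9 and 15.9 in the Wnt6 deletion. Both Hmx1 deletion libraries were the highest of the 7, with a log2 fold change of 0.45 (SE 0.160, edgeR adjusted p = 0.421). At Msx1, chr5:37814148-37814742 had 40.9 and 34.7 CPM in the Hmx1 deletion, 29.2, 26.4 and 27.6 in the Hoxa deletion and 32.4 and 33.0 in the Wnt6 deletion. Here the 3 groups were ordered without overlap, the Hmx1 deletion highest and the Hoxa deletion lowest. The log2 fold change was 0.34 (SE 0.132, edgeR adjusted p = 0.472) in the Hmx1 deletion and -0.34 (SE 0.108, edgeR adjusted p = 0.0380) in the Hoxa deletion, the latter below the fold change minimum.

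At genes other than Hmx1, the lowest value of the Hmx1 comparison was at the weakest peak of all, chr7:132608177-132608538, 8540 bp before the start of Nkx1-2. It had 1.52 and 4.96 CPM in the Hmx1 deletion, 6.47, 6.50 and 5.99 in the Hoxa deletion and 5.87 and 3.92 in the Wnt6 deletion. The Hmx1 deletion libraries lay far apart for so weak a peak, and the higher of them lay among the Wnt6 deletion libraries, with a log2 fold change of -0.58 (SE 0.297, edgeR adjusted p = 0.585). In the Hoxa deletion the same peak had a log2 fold change of 0.56 (SE 0.205, edgeR adjusted p = 0.0802).

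In the Hoxa deletion none of the 44 peaks was called by edgeR or DESeq2, beside 1.48% of all peaks tested, and 3 had an unadjusted p under 0.05, beside 20.7%. The median log2 fold change was 0.0071, with 25 of 44 above 0. The 3 Hoxa deletion libraries lay above every other library at 1 of 44 peaks, beside 9.09% of all peaks, and below at 1, beside 9.14%. Without a fold change minimum, the Msx1 peak above was the only 1 of 44 under an edgeR adjusted p of 0.05, where 8.47% of all peaks were. In the Wnt6 deletion none was called by either tool, beside 0.00403% of all peaks, and 1 had an unadjusted p under 0.05, beside 5.16%. This was the promoter peak of Msx1, with 131 and 123 CPM in the Wnt6 deletion, 163 and 145 in the Hmx1 deletion and 162, 127 and 143 in the Hoxa deletion. The groups overlapped at 127 CPM, and the log2 fold change was -0.22 (SE 0.0974, edgeR adjusted p = 0.920). Of the 44 peaks, 3 lay above 0 in the Wnt6 deletion, with a median of -0.08. Both Wnt6 deletion libraries lay below every other library at 2 of 44 peaks, both of them at Msx2, beside 4.56% of all peaks, and above at none, beside 5.53%.

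Both other deletions carry the locus of Hmx1, and there they were set against each other directly. Over its 15 peaks, the log2 fold change of the Hoxa against the Wnt6 deletion ran from -0.29 to 0.24 with a median of 0.04. By edgeR 3 of 15 had an unadjusted p under 0.05, beside 17.1% of the 74300 peaks tested outside the stretches, and none was called, beside 1.2%, with a smallest adjusted p of 0.183.

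Between Nkx1-1 and Msx1, over 4.39 Mb, there were 304 other peaks outside the stretch. EdgeR called none of them in the Hmx1 deletion, beside 0.0134% of all peaks tested. DESeq2 called 3, the same 3 that it called among the 12 peaks on the side before Hmx1's start. Its share over all peaks is not given here. By edgeR 27 of 304 had an unadjusted p under 0.05, close to the 8.94% of all peaks. The median log2 fold change was -0.00043. Sums over gene windows in this interval had a median log2 fold change of -0.058 over 90 genes, beside -0.012 over all genes tested. By edgeR 26 of 90 had an unadjusted p under 0.05, beside 15.3% of all genes. Windows of neighboring genes share peaks, so these sums are not independent. Called were 5 of 90, beside 0.0259% of all genes (8 genes, which include these 5 and Hmx1). All 5 were long noncoding RNA genes at or near Hmx1. They are the 4 named above and A930033C23Rik, which lies inside the body of Hmx1 and within the deleted stretch, and whose window holds, outside the stretch, the same 4 peaks as that of Hmx1.

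Levels varied more across the wider NKL class. A list of 40 other NKL genes, among them Nkx, Dlx, Barhl and Vax family members, had a median level of 53.2 CPM per kb, and 37 of 40 lay above the 90th percentile of all genes. The highest was Nkx3-2, a gene of the axial skeleton, at 79.3 ± 4.76 CPM per kb (SD, n = 7). The lowest was Nanog, which is active in mESCs as a pluripotency factor, at 5.73 ± 1.36 CPM per kb (SD, n = 7). Of the 40 genes, 0 were called in any of the 3 comparisons by edgeR or DESeq2. EdgeR called 0.0259% of all genes in the Hmx1 deletion, 0.672% in the Hoxa deletion and 0.00647% in the Wnt6 deletion. Median log2 fold changes of the 40 were 0.08 in the Hmx1 deletion, -0.03 in the Hoxa deletion and -0.05 in the Wnt6 deletion. In the same order 11, 2 and 2 of the 40 had an unadjusted edgeR p under 0.05, beside the shares of all genes given above. The 1 gene under an edgeR adjusted p of 0.05 in any comparison was Nkx6-3, where 18.3% of all genes passed in the Hoxa deletion, at a log2 fold change of -0.31 in the Hoxa deletion (adjusted p = 0.000396), below the fold change minimum.

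Across the 7 libraries, the log2 CPM of Nkx1-1 and Msx1 had a Pearson r of 0.860, as a description of libraries that differ in depth and deletion. With the paralogs on other chromosomes, Msx1 had r from 0.808 to 0.847 and Nkx1-1 from 0.645 to 0.762. The genes most like Nkx1-1 among 30929 were Pcdha12 (r = 0.995), Emsy (r = 0.990) and the noncoding Gm9748 (r = 0.990), and those most like Msx1 were Gjb2 (r = 0.993), Gm32912 (r = 0.993) and Adcy8 (r = 0.992). With 7 libraries, 0.789% of all genes had an r over 0.9 with Nkx1-1 and 0.860% with Msx1.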

How the data were processed

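H3K27me3 was profiled by Cut&Tag in 7 libraries of mESCs with a deletion at Hmx1, Hoxa or Wnt6. The authors deposited raw counts per peak, without normalization, in 1 table, and its column names were read through the sample titles. The submitters' processing notes name mm10, Trimmomatic, Bowtie2, SAMtools, Picard, MACS2 and deepTools; their settings, the treatment of PCR duplicates and the making of the peak list are not given in the sources used here. Peaks strong in the libraries used for peak calling are favoured by such a list. IgG signal (7 libraries) was not analysed here, and no background was subtracted. Peak positions are printed as deposited, and whether starts count from 0 or 1 is not stated. Gene bodies and promoters are those of RefSeq for GRCm38.p6, and exons were not used.

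Counts were filtered with filterByExpr by genotype and scaled by TMM factors. The comparison of each deletion was with both others pooled, by glmQLFit and glmQLFTest of edgeR 4.0.16 (R 4.3.3), over the whole peak table and, separately, over counts summed across the peaks within 10 kb of every RefSeq gene. Peaks of a deleted stretch were left out of the gene sums for tests but not of the levels. A stretch was the longest run of peaks under 10% of the other libraries in every library of the deletion, and peaks averaging under 10 counts elsewhere were passed over. Calls required a Benjamini-Hochberg adjusted p under 0.05 over all features, together with an absolute log2 fold change above 1. Standard errors were derived from the F statistic, 95% intervals from its degrees of freedom, with a prior count of 2 for log2 CPM. Named peaks were, for each gene, the strongest, those over a start and all called ones, and for each comparison the one of smallest p in each direction. The procedure was tested on simulated data. DESeq2 1.42.0 and other scalings, filters, windows, designs and left-out libraries were alternatives. Figures used matplotlib 3.10.9.

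Totals of 6016500 to 36563541 counts per library set the precision. The members, gene lists and markers were chosen with earlier results of these data known, so the tests are not independent evidence for their choice.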

Additional observations from a re-analysis of the deposited data

How the results depend on the processing

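All 927 alternative values of the calls, changes and levels were compared with those given above. Of these, 859 changed neither sign nor call, moved by less than the spread between libraries or, for a count of calls, stayed within 1.5 times of the count above, 30 moved, 6 lost a call, 2 gained one and 30 changed sign. The Hmx1 deletion had 4 called peaks and 1 called gene. With peaks overlapping the gene body alone these became 0 and 0, since the 4 peaks lie outside the body of Hmx1. With the replicate block they were 3 and 1, and 3 peaks were also called within 5 kb, after downsampling and without replicate 1 or 2 of the Hmx1 deletion or replicate 2 or 3 of the Hoxa deletion. The block left the Hoxa and Wnt6 deletions at 0. Deviations of same-numbered libraries correlated between -0.042 and 0.083, and those of differently numbered libraries between -0.114 and 0.114. With 2 libraries in a group the deviations mirror each other, so this check is weak. In every deletion replicate 1 had the lowest total of counts and replicate 2 the highest. Whether libraries of the same number shared a batch is not stated. A cutoff of 25% made the deleted stretch 20.27 kb long, so that it took in the nearest of the called peaks and left 3 called of 47.

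In the Hoxa deletion 1 peak, at Msx1, was called without a fold change minimum. The other calls in the Hoxa and Wnt6 deletions were at Hmx1, whose flank is low in the Hmx1 deletion libraries they were compared with. In the Hoxa deletion they were 1 peak with a term for each genotype, and 4 peaks and 1 gene against the Hmx1 deletion alone; leaving out single libraries gave 0 to 2 peaks and 0 to 1 gene, with 2 and 1 without replicate 2 of the Wnt6 deletion. In the Wnt6 deletion 3 peaks and 1 gene were called with a term for each genotype, and 4 and 1 against the Hmx1 deletion alone.

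Sign changes were all in gene changes near 0 that were not called. In the Hmx1 deletion Hmx2 had -0.0087 over gene-body peaks. In the Hoxa deletion, scaling by library totals gave 0.010 at Hmx2, 0.012 at Hmx3 and 0.026 at Nkx1-1. The replicate block gave 0.012 at Hmx2 and 0.013 at Hmx3, and downsampling gave 0.0048 at Hmx2 and -0.013 at Msx2. Against the Wnt6 deletion alone Hmx2 had 0.017, Hmx3 0.019, Nkx1-1 0.056, Msx1 0.036 and Msx3 0.011, and against the Hmx1 deletion alone Msx2 had -0.035. Gene-body peaks gave 0.020 at Hmx2 and 0.017 at Nkx1-1, the 25 kb window gave 0.051 at Nkx1-2 and -0.0020 at Msx2, and removing chromosome medians gave -0.056 at Msx2. With single libraries left out, the range was -0.063 to 0.012 at Hmx2, -0.061 to 0.013 at Hmx3, -0.035 to 0.016 at Nkx1-1 and -0.042 to 0.050 at Msx2. In the Wnt6 deletion Nkx1-2 had 0.0091 against the Hoxa deletion alone and -0.092 to 0.023 with single libraries left out. The cause of these changes was not tested.

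The smallest library, with a median of 23 counts per peak, limits single weak peaks. Leaving out 1 library of the Hmx1 deletion leaves it with 1, whose spread is then assumed to be that of the other groups.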
